A study of Homo sapiens with 18 samples.

Results

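The MHC class II genes and their transcriptional coactivator CIITA were followed in 2 human melanoma cell lines treated with an inhibitor of CDK4/6 or of PRMT5. A total of 10 genes were taken by name: HLA-DRA, HLA-DRB1, HLA-DPA1, HLA-DPB1, HLA-DQA1, HLA-DQA2, HLA-DQB1, HLA-DMA, CD74 and CIITA. All 10 have a row among the 20705 genes of the deposited count table. HLA-DQA2 entered the list because it had the largest rise in A375 after 72 hours of CDK4/6i, so the gene was chosen by its measured values in that comparison, which is described here without a test.

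Poly-A RNA was sequenced from 18 libraries in 9 groups, with 2 replicates per group. CHL1 cells (wild type for BRAF and NRAS, with mutant p53) were grown in DMEM, and A375 cells (mutant for BRAF, with wild-type p53) in RPMI-1640. Cells received DMSO as the control, the CDK4/6 inhibitor palbociclib at 1 µM (CDK4/6i) for 72 hours or 6 days, or the PRMT5 inhibitor GSK3326595 at 500 nM (PRMT5i) for 72 hours. A375 has a control at 72 hours and another at 6 days, whereas the only CHL1 control, at 72 hours, serves all CHL1 treatments. The methods of the study describe replicates as grown for each condition and do not say whether they were independent experiments, so p-values measure the spread between these libraries, which may be technical.

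MHC class II molecules present peptides to CD4+ T cells. Each is a pair of an alpha and a beta chain (DR, DP or DQ) that is assembled with the invariant chain CD74 and loaded in endosomes with the help of the chaperone DM, which DO restrains. The genes are mainly active in professional antigen-presenting cells, but interferon gamma induces them in many other cells and a part of melanomas expresses them without it. CIITA does not bind DNA by itself. It acts through RFX, CREB and NF-Y proteins that sit on the X and Y boxes of class II promoters.

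These boxes are shown first because they are the sequence feature through which CIITA is known to reach its targets. RefSeq promoter windows (250 bases before to 50 after the start site, build GRCh38.p14) were given for 8 of the 10 genes and were not given for HLA-DRA and CIITA. The stretches below run 5′ to 3′ on the strand of each gene from 150 to 41 bases before its start site. Capitals mark matches to a pattern of 11 letters for the X box (the longer runs) and to ATTGG for the Y box, the latter also as its reverse complement CCAAT. The first 3 lines are the windows with matches to both patterns. In order these are HLA-DRB1 (chr6:32589889-32589998, minus strand), HLA-DQB1 (chr6:32666698-32666807, minus strand) and HLA-DMA (chr6:32953138-32953247, minus strand). They are followed by HLA-DQA1 (chr6:32637256-32637365, plus strand) and HLA-DQA2 (chr6:32741241-32741350, plus strand), a pair of close relatives, and by HLA-DPB1 (chr6:33075840-33075949, plus strand) and CD74 (chr5:150412951-150413060, minus strand).
HLA-DRB1: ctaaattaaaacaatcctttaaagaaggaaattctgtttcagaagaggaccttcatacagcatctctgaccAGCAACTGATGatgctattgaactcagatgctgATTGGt
HLA-DQB1: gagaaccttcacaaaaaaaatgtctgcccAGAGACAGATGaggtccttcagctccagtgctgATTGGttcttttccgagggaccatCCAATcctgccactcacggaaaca
HLA-DMA: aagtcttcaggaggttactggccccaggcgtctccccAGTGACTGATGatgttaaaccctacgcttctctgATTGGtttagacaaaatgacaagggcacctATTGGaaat
HLA-DQA1: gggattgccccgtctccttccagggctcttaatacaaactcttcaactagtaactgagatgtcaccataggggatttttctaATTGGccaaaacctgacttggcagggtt
HLA-DQA2: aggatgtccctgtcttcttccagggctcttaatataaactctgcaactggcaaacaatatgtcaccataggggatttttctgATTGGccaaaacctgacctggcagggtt
HLA-DPB1: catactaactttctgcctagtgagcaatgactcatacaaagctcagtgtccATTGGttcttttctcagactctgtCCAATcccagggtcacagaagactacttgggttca
CD74: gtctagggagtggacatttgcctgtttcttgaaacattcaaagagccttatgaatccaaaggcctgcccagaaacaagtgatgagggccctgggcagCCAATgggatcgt

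The Y-box letters were found on either strand in 7 of the 8 genes, all but HLA-DPA1, and in 34.6% of all 35116 promoter windows. The X-box letters were found in HLA-DRB1, HLA-DQB1 and HLA-DMA, against 0.817% of all windows. An X box with a Y box in the following 40 bases on the same strand occurred in 6 windows of the whole table, which belong to HLA-DRB1, HLA-DRB5, HLA-DQB1, HLA-DMA, MR1 and LOC105371776. The start of the X box preceded that of the Y box by 33 bases in HLA-DRB1 and HLA-DQB1 and by 34 bases in HLA-DMA. HLA-DQA1 and HLA-DQA2 have the Y box at the same place and 95 of 110 bases (86.4%) in common in the stretch shown. Of the other motifs searched on both strands, an E box (CACGTG, 7.26% of all windows) and an IRF site (3.57%) were found in 0 of the 8 genes, and a STAT site (TTCNNNGAA, 7.66%) only in HLA-DQA1. These are matches of letters in a window, and binding was not measured. A box that departs from the letters searched is missed, so a window without a match may still hold one.

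**Figure D1:**
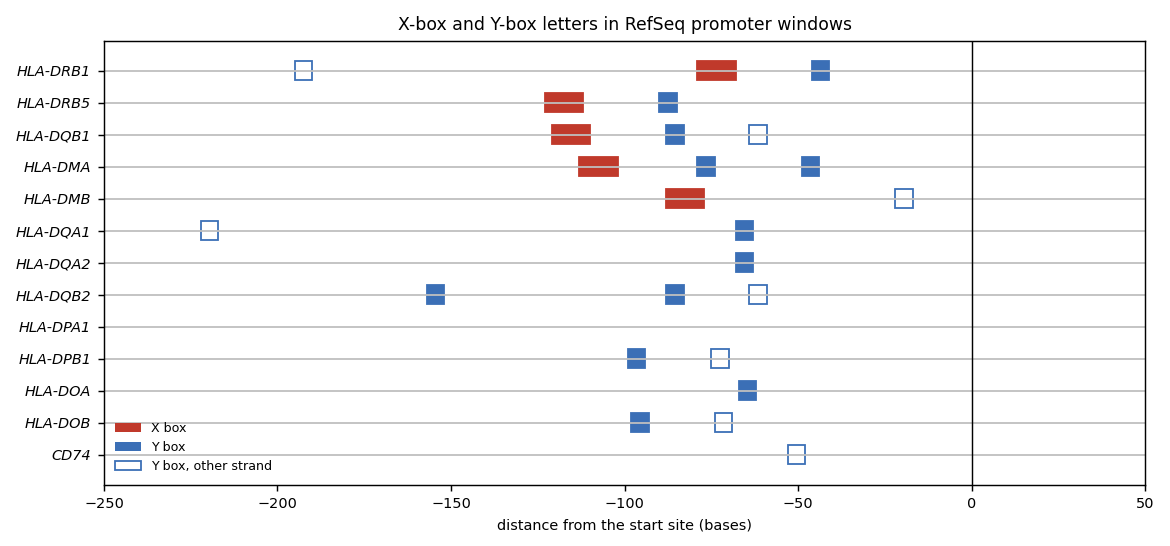
Position of X-box and Y-box letters in the RefSeq promoter windows of 13 class II pathway genes, with the distance from the start site in bases on the horizontal axis and 1 line per gene. Filled red boxes are X boxes, filled blue boxes Y boxes and open boxes Y boxes on the other strand. HLA-DRB1, HLA-DRB5, HLA-DQB1 and HLA-DMA carry an X box followed within 40 bases by a Y box on the same strand. HLA-DMB carries an X box and a Y box on the other strand, and HLA-DPA1 carries neither box.

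Library totals on genes were 20509245 to 37424081 counts in CHL1, 16213475 to 19598242 in the 6 A375 libraries of 72 hours and 29199890 to 36036772 in the 4 of 6 days. Levels are given as CPM (read counts relative to library size) after scaling by TMM, an edgeR method that aligns the bulk of genes between libraries, and a gene counts as at the floor in a group where no library holds more than 3 of its reads. By their names, the 8 CHL1 libraries and the 4 A375 libraries taken at 6 days form a set, and the 6 taken from A375 at 72 hours form a second one. The difference in log2 CPM between the genes richest and poorest in GC was -2.32 and -1.88 in CHL1 PRMT5i, -2.18 and -1.09 in the A375 control of 6 days, and between -0.33 and 0.56 in the other libraries. Of 14 melanocyte markers, 10 were analysed here, with sums of 322 to 1030 CPM per library, while MLANA and SOX10 were not. In bulk RNA, a change in the number of cells that express a gene and a change in RNA per cell cannot be told apart.

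The 10 genes together were far lower in CHL1 than in A375, although not each of them was. The reads of all 10 genes together summed to 8.65 to 11.4 CPM in the CHL1 libraries. In A375 they summed to 116 and 141 CPM in the 72-hour control and to 539 and 564 CPM in the 6-day control. After 6 days of CDK4/6i they summed to 2140 and 1480 CPM. In CHL1, 5 of the 10 genes (HLA-DRA, HLA-DRB1, HLA-DQA1, HLA-DQA2 and HLA-DQB1) were at the floor in all 4 groups, with 0 or 1 read per library. The other 5 were measurable there, with group means of 2.24 to 4.69 CPM for HLA-DPB1, 3.28 to 5.45 for HLA-DMA, 0.956 to 1.74 for HLA-DPA1, 0.500 to 0.992 for CIITA and 0.454 to 0.892 for CD74. HLA-DMA was at a mean of 3.31 CPM in the CHL1 control, and of 2.74 and 6.03 CPM in the A375 controls of 72 hours and 6 days. After 6 days of CDK4/6i, within 1 library set, its means were 3.48 CPM in CHL1 and 2.95 CPM in A375. In A375 after 6 days of CDK4/6i, 10 of 10 genes reached 1 CPM in each library.

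**Figure D2:**
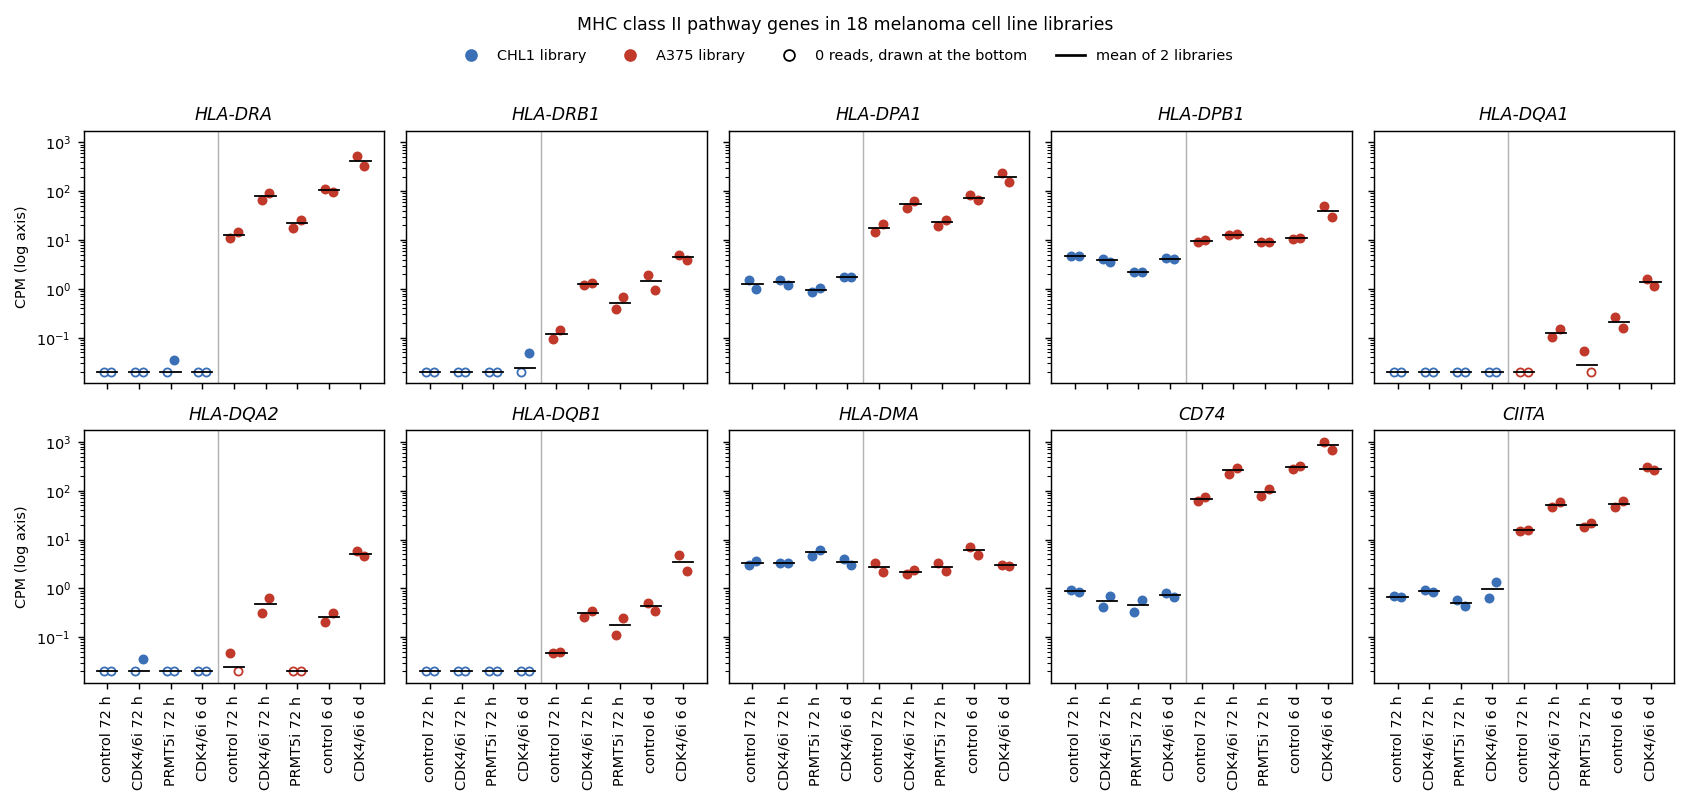
CPM of the 10 genes in each of the 18 libraries, on a log axis, with CHL1 in blue on the left and A375 in red on the right of each panel. Points are libraries, open points are libraries with 0 reads drawn at the bottom, and black lines are means of 2 libraries. In A375 the CDK4/6i libraries of 6 days lie highest in 9 of the 10 panels, HLA-DMA excepted, and 5 genes stay at the bottom in CHL1.

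After 6 days of CDK4/6i, A375 cells had higher levels of nearly the whole class II pathway than their 6-day controls. Of the 10 genes, 9 rose and 1, HLA-DMA, fell (edgeR quasi-likelihood test, Benjamini-Hochberg adjusted p below 0.05 among 20705 genes). In this comparison 43.1% of all genes were DEGs, with 21.8% up and 21.3% down. The median log2 fold change was 1.96 over the 10 genes and 0.10 over all genes. For all 9 genes that rose, both treated libraries lay above both controls, as they did for 37.6% of all genes.

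CIITA, the coactivator on which class II transcription depends (ENSG00000179583, GRCh37 chr16:10960079-11036878, plus strand), was at 45.5 and 60.3 CPM in the 6-day controls and at 310 and 261 CPM in the treated libraries. The groups did not overlap, and the means of 52.9 ± 10.5 and 285 ± 35 CPM (SD, n = 2) differ 5.40-fold. The log2 fold change was 2.43 ± 0.21 (SE), with an adjusted p of 2.77e-06 from the edgeR test. At 72 hours, CIITA was at 15.3 and 15.8 CPM in the A375 controls and at 45.5 and 57.8 CPM under CDK4/6i. Ordered by level, the A375 groups ran from the 72-hour control through PRMT5i (18.2 and 22.1 CPM) to CDK4/6i at 72 hours, the 6-day control and CDK4/6i at 6 days, and only the ranges of CDK4/6i at 72 hours and of the 6-day control overlapped.

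HLA-DRA encodes the alpha chain of DR (ENSG00000204287, GRCh37 chr6:32407655-32412823, plus strand). It was at 110 and 97.2 CPM in the 6-day controls and at 521 and 325 CPM after 6 days of CDK4/6i. Both treated libraries lay far above the controls, and they differed from each other more than the controls did, with SDs of 138 and 9.07 CPM (n = 2). The log2 fold change was 2.03 ± 0.25 (SE), with an edgeR adjusted p of 3.53e-05. HLA-DRB1, a beta chain of DR, was low, with 1.95 and 0.971 CPM in the controls and 5.03 and 3.95 CPM in the treated libraries. It rose by 1.62 ± 0.35 on the log2 scale (edgeR adjusted p 0.00201). HLA-DRB5, another DR beta chain gene, was at 2.28 and 3.32 CPM in the controls and at 21.6 and 15.9 CPM under CDK4/6i. Per kilobase of annotated transcript this is 15.0 ± 3.23 CPM per kb (SD, n = 2) in the treated libraries, above the 3.67 ± 0.62 of HLA-DRB1. Reads were aligned to the GRCh37 reference, and how well the DR beta alleles of A375 match it was not tested. The order of these genes by level may depend on it.

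HLA-DPA1 and HLA-DPB1 encode the alpha and beta chains of DP. HLA-DPA1 was at 83.1 and 64.8 CPM in the 6-day controls and at 236 and 157 CPM under CDK4/6i, a log2 fold change of 1.41 ± 0.24 (SE, edgeR adjusted p 3.70e-04). HLA-DPB1 was at 10.6 and 11.0 CPM in the controls and at 50.4 and 30.0 CPM under CDK4/6i, a log2 fold change of 1.90 ± 0.24 (SE, edgeR adjusted p 3.60e-05). In both genes the treated libraries lay above the controls. The genes overlap on opposite strands (GRCh37 chr6:33032346-33048552, minus, and chr6:33043767-33057473, plus), and without strand in the counting reads from the overlap could not be told apart. Whether the counting used strand is not given in the sources used here.

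Among the 10 genes, the DQ genes had the largest fold changes, from low levels. HLA-DQA2 (ENSG00000237541, GRCh37 chr6:32709168-32714975, plus strand), a DQ alpha chain gene beside the classical HLA-DQA1, had 7 and 10 reads in the 6-day controls and 209 and 171 reads after CDK4/6i. These are 0.210 and 0.313 CPM against 5.71 and 4.57 CPM, and the groups lay 19.6-fold apart in their means. The log2 fold change of 4.27 ± 0.45 (SE, edgeR adjusted p 1.36e-05) comes from libraries that were not used to choose the gene. HLA-DQA1 had 9 and 5 reads in the controls and 58 and 43 under CDK4/6i, a log2 fold change of 2.65 ± 0.53 (SE, edgeR adjusted p 0.0012). HLA-DQB1, the beta chain, had 17 and 11 reads in the controls and 174 and 87 under CDK4/6i, a log2 fold change of 3.03 ± 0.44 (SE, edgeR adjusted p 1.06e-04). In each of the 3 DQ genes the treated libraries lay above the controls. Of all stretches of 75 bases in HLA-DQA2 transcripts, 6.07% are shared with HLA-DQA1, and 0 of those of 150 bases, and with the reads of both genes summed the log2 fold change was 3.76 ± 0.40 (SE, edgeR adjusted p 1.13e-05).

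CD74, the invariant chain, was the most abundant of the 10 genes. It was at 279 and 324 CPM in the 6-day controls and at 999 and 697 CPM after 6 days of CDK4/6i, so that both treated libraries exceeded both controls. Per kilobase of annotated transcript (the MANE Select transcript, which HLA-DPA1 lacks in the annotation), its level in the treated libraries was 513 ± 129 CPM per kb (SD, n = 2), next to 342 ± 112 for HLA-DRA, 17.8 ± 2.18 for CIITA, 10.1 ± 3.61 for HLA-DPB1 and 3.53 ± 0.554 for HLA-DQA2. On this scale CD74 was above HLA-DRA in 10 of 10 A375 libraries, by 1.43-fold to 4.09-fold, and the others were lower. The log2 fold change of CD74 was 1.49 ± 0.23 (SE, edgeR adjusted p 1.97e-04), and it was 0.95 (adjusted p 0.00408) with an offset for GC content, beside the GC trends of -2.18 and -1.09 in the 6-day controls.

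HLA-DMA, the alpha chain of the peptide-loading chaperone DM, moved the other way. It was at 7.15 and 4.92 CPM in the 6-day controls and at 3.03 and 2.86 CPM under CDK4/6i, with both treated libraries below both controls, as in 30.5% of all genes. The log2 fold change was -1.03 ± 0.30 (SE, edgeR adjusted p 0.0117). The call was lost without the first 6-day control (log2 fold change -0.77, adjusted p 0.0738), without the first CDK4/6i library (-1.08, adjusted p 0.0522) and without the second (-0.98, adjusted p 0.0705). Against the 72-hour control, at 3.33 and 2.15 CPM, the log2 fold change was 0.06 (adjusted p 0.918). HLA-DMB, which encodes the beta chain of the same heterodimer, was at 2.01 and 2.22 CPM in the 6-day controls and at 13.9 and 10.7 CPM under CDK4/6i, a log2 fold change of 2.53 ± 0.30 (SE, edgeR adjusted p 2.29e-05).

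The choice of control set the size of these changes for the other 9 genes. Their means were lower in the 72-hour controls, so a rise against these followed from that against the 6-day controls. The 6-day controls were themselves higher than the 72-hour controls, 7.98-fold for HLA-DRA, 4.38-fold for CD74, 4.08-fold for HLA-DPA1, 3.40-fold for CIITA and 1.12-fold for HLA-DPB1. These groups differ in time and in library set, which cannot be told apart, and the difference was not tested. Against the 72-hour control the log2 fold changes at 6 days were 4.98 for HLA-DRA, 4.15 for CIITA, 3.58 for CD74, 3.39 for HLA-DPA1 and 2.02 for HLA-DPB1. With the offset for GC content the 9 genes remained called, with 1.88 for HLA-DRA, 1.98 for CIITA and 4.18 for HLA-DQA2.

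**Figure D3:**
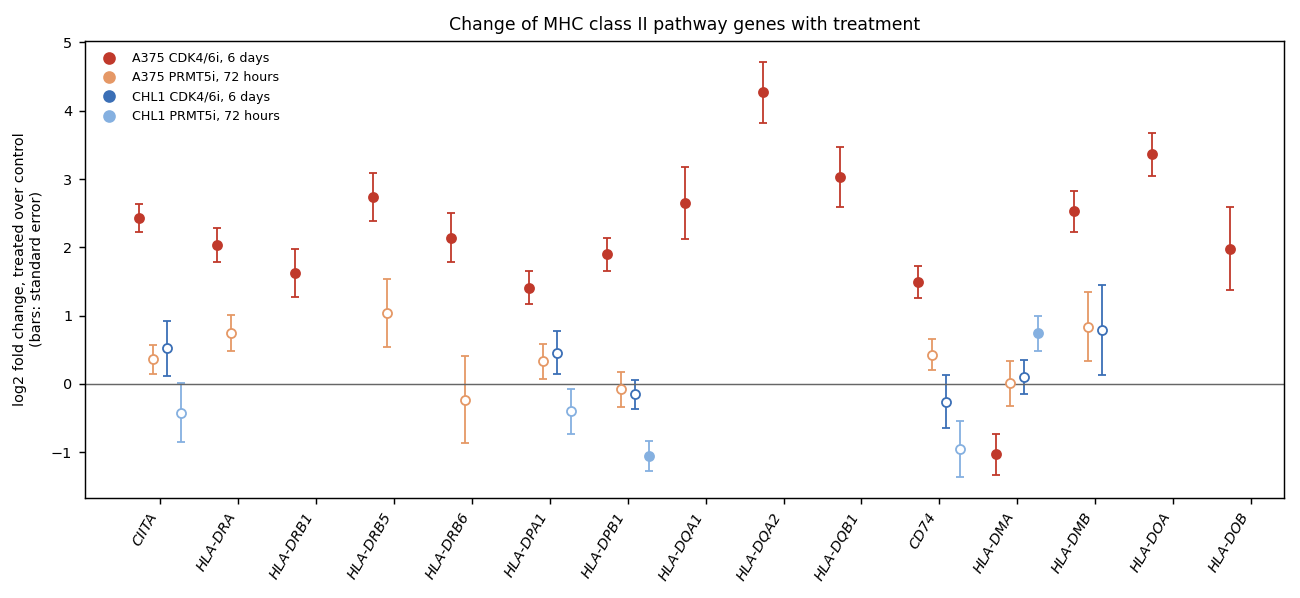
Log2 fold change of treated over control libraries for 15 class II pathway genes in 4 comparisons, with bars of 1 standard error from edgeR. Filled points passed an adjusted p below 0.05, open points did not, and genes at the floor in either group are left out. The red points (A375, 6 days of CDK4/6i) lie above 1 for every gene shown except HLA-DMA at -1.03, and HLA-DQA2 is highest at 4.27.

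The other class II genes with a row moved with them. A total of 6 of 6 rose in A375 after 6 days of CDK4/6i, with a median log2 fold change of 2.63. HLA-DOA, the alpha chain of the DM inhibitor DO, went from 1.95 and 1.88 CPM to 24.6 and 14.8 CPM (log2 fold change 3.36 ± 0.32, edgeR adjusted p 5.04e-06). HLA-DRB5 rose by 2.74 ± 0.35, the DR beta pseudogene HLA-DRB6 by 2.14 ± 0.36 and HLA-DOB by 1.98 ± 0.61 on the log2 scale (SE), and HLA-DOB, with 4 and 6 reads in the controls, was not called by DESeq2 (adjusted p 0.159). HLA-DQB2 had 2 and 1 reads in the controls and 82 and 42 under CDK4/6i, a ratio of 36.4 with an exact 95% counting interval of 12.2 to 179. This list is separate from the 10 genes but was drawn up with earlier results of the same libraries known.

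At 72 hours of CDK4/6i in A375, the comparison through which HLA-DQA2 was chosen, the same genes were described without a test. HLA-DQA2 had 1 and 0 reads in the controls and 6 and 13 reads under CDK4/6i, a ratio of 20.1 in the values that chose it. HLA-DRA went from 11.2 and 14.7 CPM to 66.6 and 92.5 CPM, 6.13-fold. CD74 went from 61.6 and 76.1 CPM to 225 and 297 CPM, 3.79-fold, and HLA-DPA1 from 14.9 and 21.4 CPM to 45.7 and 61.9 CPM, 2.97-fold. Both treated libraries exceeded both controls in 9 of 10 genes, beside 37.1% of all genes, and the values of HLA-DMA overlapped. The 9 include HLA-DQA1 and also HLA-DQA2, which was chosen by these values. HLA-DRB1 and HLA-DQB1 had 1 to 3 reads in the controls, with ratios of 10.4 (4.16 to 33.4) and 6.35 (1.41 to 58.4), and HLA-DQA1 was at the floor in both groups.

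PRMT5i for 72 hours gave 0 DEGs among the class II genes of A375 in the fit of all 10 libraries, and 5 in a fit with the replicate number as a block. In the former, 0 of the 9 genes tested were called by edgeR, beside 2.61% of all genes, and 0 by DESeq2. An unadjusted p below 0.05 was found for 2 of the 9, beside 16.1% of all genes. HLA-DQA2, with 0 reads in both PRMT5i libraries, was not tested because this comparison shares its controls with the one that chose it. HLA-DRA was at 17.9 and 26.2 CPM under PRMT5i, above the controls at 11.2 and 14.7 CPM (log2 fold change 0.75 ± 0.26, adjusted p 0.157). CD74 was at 78.7 and 109 CPM (0.43 ± 0.23, adjusted p 0.394) and CIITA at 18.2 and 22.1 CPM (0.36 ± 0.21, adjusted p 0.436). Both treated libraries lay above both controls in 5 of the 10 genes, beside 26.9% of all genes. With the replicate number as a block in the 6 A375 libraries of 72 hours, 29.5% of all genes were called and 5 of the 9 rose, namely HLA-DRA (log2 fold change 0.74, edgeR adjusted p 8.26e-09), CD74 (0.42, 3.07e-05), CIITA (0.36, 0.0108), HLA-DPA1 (0.33, 0.0137) and HLA-DRB1 (adjusted p 0.0238). HLA-DRB1 had 2 and 3 reads in the controls and 7 and 11 under PRMT5i, a ratio of 4.27 with an exact 95% counting interval of 1.53 to 14.7. The deviations of same-numbered libraries correlated at 0.22, 0.25 and 0.48 over the 3 pairs of these groups, and the labels do not say that a number marks a shared culture or day. In the same 6 libraries without the block, a setting chosen after seeing the data, 15.8% of all genes were called and of the 9 only HLA-DRA (0.75, adjusted p 0.0254).

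In CHL1, none of the 10 genes was called under CDK4/6i. After 72 hours 0 of 10 were called (4.98% of all genes), after 6 days 0 of 10 (16.6% of all genes), and between the 2 times 0 of 10 (0.0145% of all genes). In all 3 comparisons the count was also 0 at an unadjusted p below 0.05 and 0 by DESeq2. For the 5 genes at the floor, with 0 or 1 read, the depth allows up to 0.129 CPM in a group, and a change below that was not detectable. CIITA was at 0.691 and 0.674 CPM in the control and at 0.648 and 1.34 CPM after 6 days, which overlap (log2 fold change 0.52 ± 0.40, edgeR adjusted p 0.421). CD74 was at 0.933 and 0.851 CPM in the control and at 0.800 and 0.668 CPM after 6 days (-0.26 ± 0.39, edgeR adjusted p 0.714).

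PRMT5i in CHL1 called 2 of the 10 genes, beside 54% of all genes (26.4% up and 27.6% down). In this comparison and in that with CDK4/6i below, 5 of the 10 were at the floor in both groups, with too few reads to be called. HLA-DPB1 fell from 4.73 and 4.64 CPM to 2.21 and 2.26 CPM, a log2 fold change of -1.05 ± 0.22 (SE, edgeR adjusted p 0.00176). HLA-DMA rose from 3.00 and 3.62 CPM to 4.66 and 6.24 CPM, a log2 fold change of 0.74 ± 0.25 (SE, edgeR adjusted p 0.024). The call for HLA-DMA was lost without either control (adjusted p 0.167 and 0.0563) and without the second PRMT5i library (adjusted p 0.136). With an offset for the GC trend of the PRMT5i libraries HLA-DPB1 was at -1.19 (adjusted p 0.00135) and HLA-DMA at 1.18 (adjusted p 0.00257), whereas CIITA went from -0.42 (adjusted p 0.441) to 0.19 (adjusted p 0.792). Compared directly with CDK4/6i at 72 hours, PRMT5i libraries were lower in HLA-DPB1 (-0.76 ± 0.22, edgeR adjusted p 0.0112) and higher in HLA-DMA (0.75 ± 0.25, edgeR adjusted p 0.0204), 2 of 10 genes beside 57.8% of all genes. The former call was lost without the first CDK4/6i library (adjusted p 0.0767), and the latter without either CDK4/6i library (adjusted p 0.104 and 0.0917) or the second PRMT5i library (adjusted p 0.12).

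The lines were compared directly after 6 days of CDK4/6i, within 1 library set but in different media. A375 was higher in 9 of the 10 genes, beside 31.9% of all genes that were higher in A375, and HLA-DMA did not pass the test (log2 difference -0.25 ± 0.29, edgeR adjusted p 0.471). The ratio of means was 1160 for CD74, 288 for CIITA, 113 for HLA-DPA1 and 9.59 for HLA-DPB1. Against a floor of 3 reads in each CHL1 library, A375 was at least 3280-fold higher in HLA-DRA, 39.9-fold in HLA-DQA2, 27.5-fold in HLA-DQB1 and 10.6-fold in HLA-DQA1. HLA-DRB1, with 1 read in 1 of the CHL1 libraries, had a ratio of 212 with an exact 95% counting interval of 37.7 to 8390.

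The 6-day response to CDK4/6i could be compared between lines in the 5 genes above the floor in all groups. It was larger in A375 for CIITA (difference in log2 fold change 1.93 ± 0.41, edgeR adjusted p 0.00358), HLA-DPB1 (2.06 ± 0.32, edgeR adjusted p 3.74e-04) and CD74 (1.76 ± 0.44, edgeR adjusted p 0.00924), where 9.51% of all genes were called in this direction. For HLA-DPA1 the difference was 0.96 ± 0.42 (adjusted p 0.103) and for HLA-DMA -1.11 ± 0.40 (adjusted p 0.0552), and DESeq2 called the latter (adjusted p 0.0304). The CHL1 side of this difference uses the 72-hour control. With the GC offset, CD74 was at 1.26 (adjusted p 0.0548). For PRMT5i the difference between lines was called in HLA-DPB1 and CD74, where the change in A375 exceeded that in CHL1, as in 22.1% of all genes, and the A375 controls are those of the comparison that chose HLA-DQA2. Each of these calls was lost without any 1 of 4 libraries, with adjusted p up to 0.0929 for HLA-DPB1 and 0.136 for CD74, and that of CD74 with the GC offset (adjusted p 0.597).

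The genes that act around class II were described from lists, each with the number of genes called in A375 after 6 days of CDK4/6i, beside 21.8% of all genes up and 21.3% down. Of 9 factors of the X and Y boxes, 3 rose and 4 fell. RFX5, the DNA-binding subunit of RFX, rose by 1.18 ± 0.20 on the log2 scale, and the NF-Y subunit gene NFYB (-1.91 ± 0.23) and the RFX subunit gene RFXAP (-1.18 ± 0.24) fell. Of 13 CIITA cofactors and class II regulators, 2 rose and 3 fell: the histone methyltransferase gene EZH2 (-1.66 ± 0.17), MARCH1 (-1.56 ± 0.25), whose product marks surface class II for degradation, and the deacetylase gene HDAC2 (-1.09 ± 0.22). Of 10 genes of lysosomal peptide processing 7 rose and 0 fell, led by the cathepsins CTSL (1.42 ± 0.24), CTSD (1.32 ± 0.40) and CTSB (1.20 ± 0.19).

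The interferon lists were read only in part. Of 23 genes of the interferon gamma pathway 14 were analysed here, and the other 9, with strongly inducible chemokine and guanylate-binding protein genes among them, were not. Of the 14, 2 rose and 3 fell, with a median log2 fold change of 0.18 beside 0.10 for all genes. ICAM1, an adhesion molecule, rose by 1.66 ± 0.25, whereas the feedback inhibitor gene SOCS3 (-1.01 ± 0.21) and CD274, which encodes PD-L1 (-0.93 ± 0.25), fell on the log2 scale. Of 29 genes of the type I interferon response 21 were analysed here, and some of the IFIT and OAS genes were not. Of the 21, 5 rose and 2 fell, with OASL at 1.59 ± 0.32, STAT2 at 1.40 ± 0.18 and ISG15 at 1.33 ± 0.26. Of 17 genes of class I presentation 12 rose and 0 fell, led by HLA-F (2.27 ± 0.39), HLA-B (2.24 ± 0.21) and HLA-E (1.55 ± 0.18). Of 10 costimulation genes 2 rose and 0 fell, LGALS3 (1.10 ± 0.18) and CD276 (0.94 ± 0.22). These counts describe the lists, no list was tested as a set, and no difference between lists was tested.

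**Figure D4:**
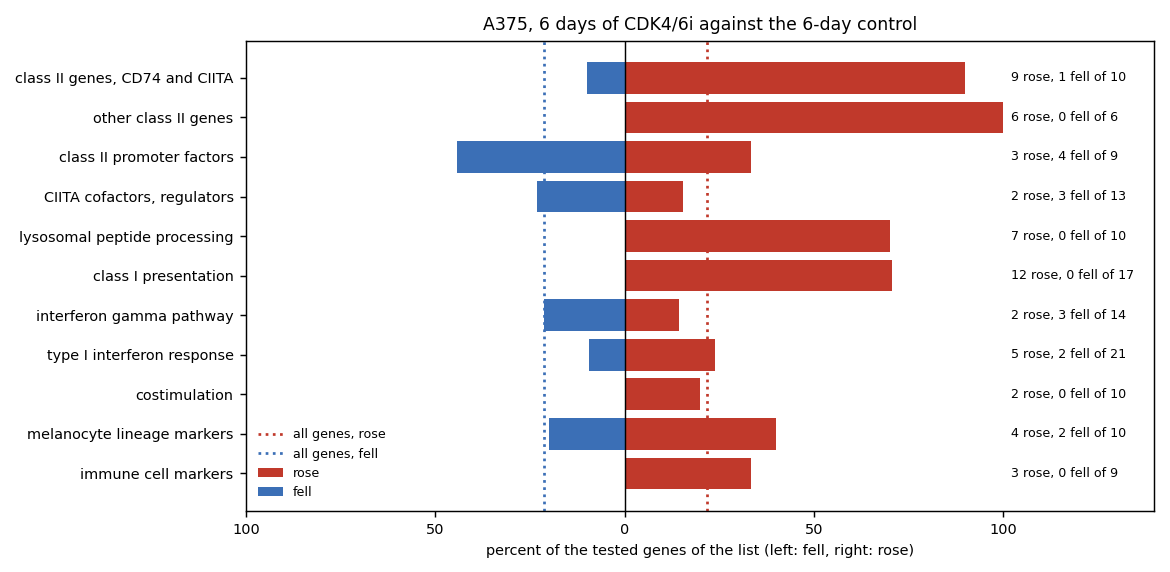
Percent of the genes of each list that rose (red, to the right) or fell (blue, to the left) in A375 after 6 days of CDK4/6i, by edgeR with an adjusted p below 0.05. Dotted lines mark the shares among all 20705 genes, 21.8% up and 21.3% down. The 10 class II pathway genes (9 rose, 1 fell) and the other class II genes (6 of 6 rose) lie beyond the line on the right. So do class I presentation (12 of 17), lysosomal peptide processing (7 of 10) and melanocyte lineage markers (4 of 10). Immune cell markers (3 of 9), class II promoter factors (3 of 9) and the type I interferon response (5 of 21) also do. CIITA cofactors, the interferon gamma pathway and costimulation do not.

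Markers of antigen-presenting and other immune cells were read alongside, because such cells express class II. Of 20 markers 9 were analysed here, and their summed level was 8.59 and 8.67 CPM in the A375 controls of 6 days and 43.6 and 30.9 CPM after 6 days of CDK4/6i. The sums were 14.4 and 12.2 CPM in the 72-hour control, 36.3 and 32 CPM under CDK4/6i at 72 hours, 21.3 and 20.6 CPM under PRMT5i, and 8.79 to 19.3 CPM in CHL1. In the 6-day comparison 3 of the 9 rose and 0 fell, namely ITGAX (2.59 ± 0.34 on the log2 scale), LYZ (2.33 ± 0.30) and CSF1R (1.37 ± 0.30). The general leukocyte marker PTPRC had a mean of 0.490 CPM in the A375 controls of 6 days and of 0.458 CPM under CDK4/6i. CD14, CD79A, CD79B, ITGAM and FCER1G all had means below 1 CPM in all A375 groups, and MS4A1, CD3D and CD3E were not analysed here. None of the 9 was at 0 in both libraries of an A375 group, and the part of such cells in the class II values was not tested. In CHL1, PTPRC had means of 7.59 to 16.7 CPM, while 5 of the class II genes stayed at the floor. Of 10 melanocyte markers 4 rose in A375, including SLC45A2 (2.25 ± 0.27), S100B (1.37 ± 0.23) and PMEL (1.35 ± 0.35), and 2 fell. Those that fell, named after their values were seen, were the lineage transcription factor genes MITF, from a mean of 177 to 84.9 CPM (-1.05 ± 0.19, edgeR adjusted p 4.99e-04), and PAX3, from 72.5 to 48.9 CPM (-0.57 ± 0.18, edgeR adjusted p 0.0163). The part of the GC trends of the 6-day controls (-2.18 and -1.09) in these marker changes was not tested.

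The genes with the most similar pattern were found by correlating log2(CPM + 1) over the 18 libraries after the mean of each line was subtracted, among the 15657 genes that average 1 CPM or more. For HLA-DRA these were CD74 (r = 0.990), HLA-DPA1 (0.984), RP4-718J7.4 (0.981), the cytokine gene IL19 (0.968) and CIITA (0.967). For CIITA they were HLA-DMB (0.988), HLA-DOA (0.980), HLA-DRB5 (0.975), IL19 (0.967) and HLA-DRA (0.967). For CD74 they were HLA-DRA, HLA-DPA1, RP4-718J7.4, CIITA and HLA-DMB (0.990 to 0.962). Within the 10 A375 libraries, the correlation with CIITA was 0.93 to 0.98 for 8 of the 9 other genes and 0.08 for HLA-DMA. In CHL1 the group means of HLA-DRA, CD74 and CIITA were all below 1 CPM, so the values over the 18 libraries mostly reflect A375. The libraries share treatments, depth and library sets, so these values are a description.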

How the data were processed

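RNA-seq counts were analysed for 18 libraries of CHL1 and A375 cells. The authors aligned paired reads to GRCh37 with HISAT2 2.0.4, counted them per gene with HTSeq (0.11.2 in the submitters' processing notes) and dropped weakly expressed genes. Their name for the deposited values calls them normalised by edgeR. The values are whole numbers with unequal library totals, so they were taken as counts without normalization. Libraries were grouped from their labels.

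Each line was fitted with all its libraries by edgeR 4.0.16 (TMM, quasi-likelihood test, prior count 0.125, R 4.3.3) on all 20705 genes, and differences between lines with all 18 libraries. The threshold was a Benjamini-Hochberg adjusted p of 0.05. SEs are the fold change divided by the root of F. The edgeR script was tested on simulated data. DESeq2 1.42.0 was an alternative, with others described at the end. GC content and positions came from GENCODE 44 on GRCh37, with GC for 16363 genes (1155 by an older symbol), and promoters from RefSeq.

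The 10 genes and all lists were chosen with earlier results of these data known. Genes named are the 10, the other class II genes with a row and, of each further list, at most the 3 with the largest change among those called with a mean of at least 1 CPM and no overlap. Reads are not independent molecules, so floors and counting intervals cover counting error only.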

Additional observations from a re-analysis of the deposited data

Results flagged for a closer look

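A total of 5 values were marked because the response of a gene differed between A375 and CHL1 by a test of the difference itself, in the fit of all 18 libraries with edgeR. Only genes above the floor in every group were considered. For 6 days of CDK4/6i, HLA-DPB1 had log2 fold changes of 1.90 in A375 and -0.15 in CHL1, a difference of 2.06 (adjusted p 3.74e-04, and 6.70e-07 to 0.00922 over the alternatives). CIITA had 2.43 and 0.52, a difference of 1.93 (adjusted p 0.00358, and 2.83e-04 to 0.0278 over the alternatives). CD74 had 1.49 and -0.26, a difference of 1.76 (adjusted p 0.00924, and 0.00206 to 0.0548 over the alternatives, the highest with the GC offset).

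For 72 hours of PRMT5i, HLA-DPB1 had log2 fold changes of -0.08 in A375 and -1.05 in CHL1, a difference of 1.00 (adjusted p 0.0213, and 0.00732 to 0.0929 over the alternatives). CD74 had 0.43 and -0.95, a difference of 1.42 (adjusted p 0.0188, and 0.00539 to 0.597 over the alternatives). The call of HLA-DPB1 was lost without the first CHL1 PRMT5i library (adjusted p 0.0606), the second (0.0523), the first A375 control of 72 hours (0.0929) or the second A375 PRMT5i library (0.0539). That of CD74 was lost without the first CHL1 control (adjusted p 0.0592), the first CHL1 PRMT5i library (0.136), the first A375 control of 72 hours (0.0615) or the second A375 PRMT5i library (0.0631). With the GC offset the difference of CD74 was 0.41, beside GC trends of -2.32 and -1.88 in the CHL1 PRMT5i libraries. In this comparison 22.1% of all genes were called with the larger change in A375, and the lines come from different library sets here. No group has 4 or more samples, so none was searched for a sample far from the others.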

How the results depend on the processing

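The counts of called genes were recomputed under median-of-ratios scaling, DESeq2, a filter of at least 1 CPM in 2 libraries, only the compared groups or all 18 libraries in the fit, a GC offset, a replicate block, summed reads of near-identical genes, an adjusted p of 0.01 and without each library. At an adjusted p below 0.01, CHL1 PRMT5i called 1 of the 10 genes, PRMT5i against CDK4/6i in CHL1 called 0, and the line difference for PRMT5i 0. The last called 1 with the GC offset. For A375 PRMT5i, 5 genes were called with a replicate block and 1 without it in the same 6 libraries of 72 hours, the latter chosen after seeing the data. Same-numbered libraries correlated at -0.34 to 0.44 over 6 pairs of CHL1 groups and at 0.22 to 0.48 over 3 pairs of A375 groups. The replicate block changed no other call. Without each library in turn the counts ran from 1 to 2 for CHL1 PRMT5i, 0 to 2 for PRMT5i against CDK4/6i, 0 to 2 for the line difference under PRMT5i, 3 to 4 for that under CDK4/6i, 9 to 10 for A375 CDK4/6i at 6 days and 9 for A375 against CHL1, and were 0 for the CHL1 CDK4/6i comparisons and A375 PRMT5i. The cause of these moves was not tested.

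Reversals concerned 13 single values with no call in the alternative. HLA-DMA in CHL1 at 72 hours of CDK4/6i went from -0.02 to 0.01 with DESeq2 and 0.01 with median-of-ratios scaling, and CIITA in CHL1 under PRMT5i from -0.42 to 0.19 with the GC offset. HLA-DMA in A375 went from 0.01 to -0.03 under PRMT5i with the GC offset and from -1.03 to 0.06 at 6 days with the 72-hour control. Without a library, HLA-DMA ranged from -0.15 to 0.12 at 72 hours and from -0.14 to 0.29 (also -0.03) at 6 days of CDK4/6i in CHL1, HLA-DPA1 from -0.20 to 0.45 (also -0.11) at 72 hours, CIITA from -0.05 to 0.96 at 6 days, and HLA-DMA in A375 under PRMT5i from -0.28 to 0.36 (also -0.27).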

Other observations

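Class I genes were measurable in both lines. In CHL1, 6 of 17 genes of class I presentation rose and 0 fell after 6 days of CDK4/6i, beside 8.83% of all genes up, with HLA-B at 1.55 ± 0.23, HLA-C at 1.05 ± 0.21 and HLA-E at 0.92 ± 0.17 on the log2 scale (SE, edgeR). Under PRMT5i, 13 of the 17 fell and 0 rose in CHL1, beside 27.6% of all genes down, led by the immunoproteasome genes PSMB9 (-2.04 ± 0.39), PSMB8 (-1.99 ± 0.27) and PSMB10 (-1.98 ± 0.41). Lysosomal peptide processing moved alike, with 7 of 10 genes down and 1 up, including CTSF (-2.28 ± 0.22) and CTSB (-1.34 ± 0.17). The CHL1 PRMT5i libraries carry the GC trends of -2.32 and -1.88, and their part in these counts was not tested. RFX5 had log2 fold changes of 1.18 ± 0.20 in A375 after 6 days of CDK4/6i and of -1.52 ± 0.19 in CHL1 under PRMT5i, and NFYB of -1.91 ± 0.23 and 1.53 ± 0.19, comparisons that differ in line, drug and time. They also differ in where the GC trends lie, in the controls of the former (-2.18 and -1.09) and in the treated libraries of the latter. The part of GC in these 2 genes was not tested.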
